A study of Homo sapiens with 6 samples.

Results

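The genes described here make up the MHC class I antigen presentation pathway as it was read in BT-549 cells after silencing of the lncRNA NEAT1. The 9 members were chosen by symbol, with earlier results of these data known. They are the heavy chains HLA-B, HLA-C, HLA-E and HLA-F, the light chain B2M, the peptide transporter subunits TAP1 and TAP2, the loading chaperone TAPBP (tapasin) and the transactivator NLRC5. All 9 were found among the 25545 genes of the expression table, and 8 passed the filter of a mean of at least 1 TPM (a level scaled by length and depth) over the libraries, so that they were tested with 10721 genes in all. HLA-F did not pass.

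BT-549, a mesenchymal cell line in long use, derives from a triple-negative breast cancer (TNBC). RNA was taken 48 h after transfection with a control siRNA (CsiRNA, 3 libraries) or an siRNA against NEAT1 (NEAT1siRNA, 3 libraries). Libraries for sequencing were made with a kit for mRNA. The sample titles also carry the tag tet, and the labels name a single siRNA per group. They do not say whether the triplicate cultures were separate experiments, so the p-values measure the spread between these libraries, which may be technical. NEAT1 had 13.4, 7.68 and 10.8 TPM with CsiRNA and 4.36, 2.96 and 2.73 TPM with NEAT1siRNA (log2 fold change -1.41, SE 0.14, adjusted p = 1.21e-07 by limma).

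Class I molecules display peptides from inside the cell to CD8+ T cells. The proteasome cuts proteins into peptides, TAP1 and TAP2 together pump them into the endoplasmic reticulum, and TAPBP holds an empty heavy chain with B2M beside the transporter until a peptide fits. NLRC5, which binds to the RFX complex on class I promoters, and the interferon and NF-κB pathways raise transcription of most of these genes, and tumours often lower them.

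The promoters below are shown because letters read by interferon or NF-κB factors lie close to the starts of most members. RefSeq promoters (GRCh38.p14) were found for 7 of the 9 members, and each stretch runs from 190 bases before the RefSeq start to 10 bases after it, in the direction of the gene. Capitals mark a match on either strand to an interferon response core (GAAANNGAA), a STAT element (TTCNNNGAA) or a κB element (GGGNNTTCC), and matches may overlap.
HLA-B, chr6:31357170-31357369, minus strand: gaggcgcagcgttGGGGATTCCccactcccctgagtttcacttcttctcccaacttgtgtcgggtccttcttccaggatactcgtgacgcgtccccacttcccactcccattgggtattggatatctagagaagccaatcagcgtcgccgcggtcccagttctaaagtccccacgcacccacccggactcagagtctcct
HLA-C, chr6:31272083-31272282, minus strand: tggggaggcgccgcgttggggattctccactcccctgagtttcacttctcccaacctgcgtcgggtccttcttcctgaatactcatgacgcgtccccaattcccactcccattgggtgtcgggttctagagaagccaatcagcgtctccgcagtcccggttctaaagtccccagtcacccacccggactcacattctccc
B2M, chr15:44711327-44711526, plus strand: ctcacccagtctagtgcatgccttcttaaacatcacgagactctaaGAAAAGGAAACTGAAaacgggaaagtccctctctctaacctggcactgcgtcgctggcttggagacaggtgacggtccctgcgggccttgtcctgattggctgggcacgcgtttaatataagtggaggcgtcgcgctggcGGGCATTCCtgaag
TAP1, chr6:32853695-32853894, minus strand: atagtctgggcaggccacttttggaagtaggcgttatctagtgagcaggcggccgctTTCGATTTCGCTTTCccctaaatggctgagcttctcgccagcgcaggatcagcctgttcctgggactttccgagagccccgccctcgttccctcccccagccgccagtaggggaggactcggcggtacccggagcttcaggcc
TAP2, chr6:32838730-32838929, minus strand: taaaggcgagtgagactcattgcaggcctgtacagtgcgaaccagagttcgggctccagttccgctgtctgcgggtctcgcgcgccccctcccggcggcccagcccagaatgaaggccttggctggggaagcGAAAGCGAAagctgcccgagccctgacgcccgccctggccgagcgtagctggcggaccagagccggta
TAPBP, chr6:33314069-33314268, minus strand: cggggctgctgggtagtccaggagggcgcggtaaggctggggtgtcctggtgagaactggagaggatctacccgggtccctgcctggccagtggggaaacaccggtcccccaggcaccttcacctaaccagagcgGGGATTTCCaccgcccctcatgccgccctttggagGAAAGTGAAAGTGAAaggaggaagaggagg

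The interferon core was found in 5 of the 7 members with a promoter, namely HLA-F, B2M, TAP1, TAP2 and TAPBP. Among all 35116 RefSeq promoters of the same length (250 bases before the start and 50 after), 8.11% held it. A match to the κB letters was found in HLA-B, B2M and TAPBP (6.58% of all promoters). A match to the STAT letters was found in 1 member, TAP1, in a second RefSeq window that is not printed (7.66% of all promoters). HLA-C held no exact match to these patterns in its window, which does not show that it lacks variants of them. In TAP1 the cores started 133 and 127 bases before the RefSeq start, in B2M 144 and 138, in TAP2 58, and in TAPBP 20 and 14. Only these exact 9-base patterns were searched, so longer or variant elements were not marked, such as gggactttcc in the printed TAP1 stretch. A lack of capitals therefore does not show that an element is absent. These matches describe letters, not bound factors.

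The members differed widely in level, with B2M far above the heavy chains and HLA-F close to 0 in both groups. Deposited TPM could not be used to order them. Reads per gene were recovered from the TPM values and the authors' mean normalized counts, which also gave the length by which each TPM had been divided. For 68 of 69 protein-coding genes between HLA-F and TAPBP on chromosome 6, that length was at least 3 times the canonical GENCODE transcript, with a median of 7.19 times. The exception was LY6G5B, at 1.89 times. Among the 10316 other protein-coding genes the median was 1.0, and 0.81% reached 3 times.

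**Figure D1:**
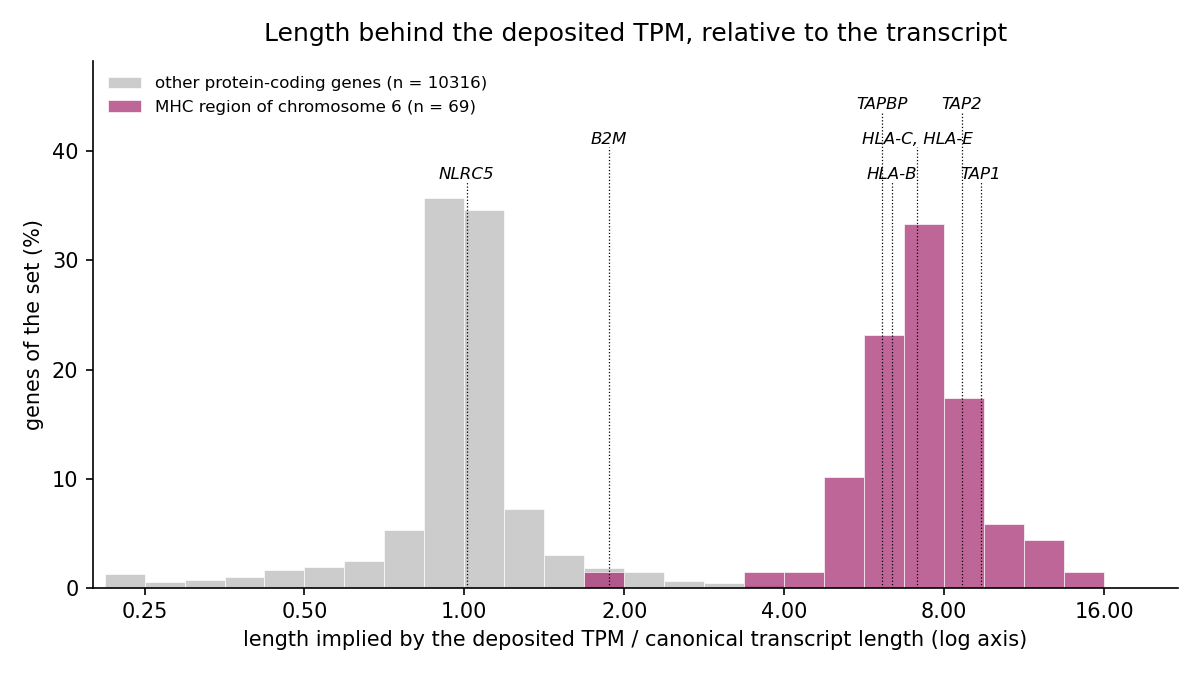
Length by which the deposited TPM were divided, relative to the canonical transcript (x axis, log scale), as a share of protein-coding genes in each set (y axis, %). Genes of the MHC region sit around 7.19 times their transcript, other genes around 1.0, and dotted lines give the members, from NLRC5 at 1.01 to TAP1 at 9.38.

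The ratio was 6.39 for HLA-B, 7.12 for HLA-C, 7.1 for HLA-E, 9.38 for TAP1, 8.64 for TAP2 and 6.1 for TAPBP, against 1.87 for B2M on chromosome 15 and 1.01 for NLRC5 on chromosome 16. Deposited TPM therefore place the chromosome 6 members 6.1 to 9.38 times lower, relative to a gene at 1.0, than their transcript length would. The genome build carries alternate copies of this region, and their part in the lengths was not tested. The recovery of reads assumes the same length for a gene in all 6 libraries. The factor then drops out of a fold change, except that the pseudocount of 1 weighs more on a low TPM and shrinks it. Levels are therefore compared between genes as RPKM (reads divided by the canonical transcript length and by library depth) rebuilt from the recovered reads. RPKM corrects the length alone. Whether reads of the chromosome 6 region were also lost or shared among copies was not tested. Levels of its genes beside B2M and NLRC5 are therefore uncertain.

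**Figure D2:**
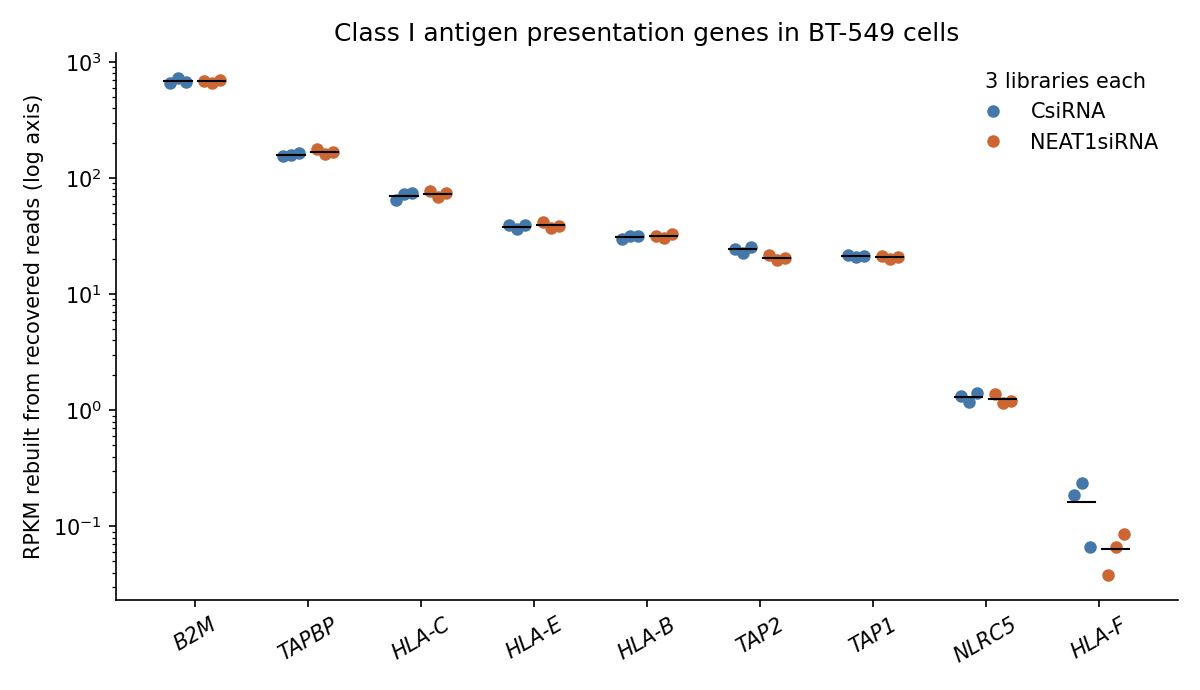
RPKM of the 9 members in each of the 6 libraries (y axis, log scale), with a black line at each group mean of 3. B2M lies at 659 to 728 RPKM, TAP2 is the member whose groups separate, and HLA-F rests on 1 to 6 reads per library.

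B2M had the highest level, at 659 to 728 RPKM over the 6 libraries. TAPBP came next at 153 to 178 RPKM, followed by HLA-C at 65.2 to 76.5, HLA-E at 36.2 to 41.7 and HLA-B at 29.9 to 32.9 RPKM. TAP2, at 19.7 to 25.6 RPKM, and TAP1, at 20.2 to 21.7 RPKM, overlapped and could not be ordered. NLRC5 had 1.16 to 1.42 RPKM and HLA-F 0.0382 to 0.235 RPKM. All other neighbours in this order had ranges that did not overlap. The order assumes that reads were counted equally well in all members.

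None of the 8 members tested was changed by NEAT1 silencing in the limma test (adjusted p under 0.05 over 10721 genes), where 14.0% of all genes tested were called. Leaving out replicate 1 of CsiRNA brought that share to 7.34%, leaving out replicate 3 of NEAT1siRNA to 7.75%, and removing a trend on GC content and length from each library to 33.3%. At an unadjusted p under 0.05 there was 1 member, TAP2 (27.4% of all genes tested), and voom on the recovered reads called 1, again TAP2 (23.0% of all genes tested), as did limma on rebuilt RPKM (20.9%). The members' median log2 fold change was -0.04, beside a median of -0.04 over all genes tested. In 1 of the 8 members, TAP2, the groups did not overlap in TPM, and this was so for 30.3% of all genes tested. In bulk RNA, fewer cells that express a gene and less of its RNA per cell cannot be told apart.

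The heavy chains, which hold the peptide, overlapped between the groups in every case. HLA-B (GRCh38 chromosome 6, 31353872 to 31367067, minus strand) had 4.13, 4.10 and 3.97 TPM with CsiRNA and 3.99, 4.09 and 3.92 TPM with NEAT1siRNA. The groups overlapped, with a log2 fold change of -0.02 (95% interval -0.21 to 0.17, adjusted p = 0.920 by limma). HLA-C (31268749 to 31272130, also minus) had 8.09, 8.43 and 8.27 TPM with CsiRNA and 8.58, 8.23 and 7.93 TPM with NEAT1siRNA. Its highest and its lowest library were both NEAT1siRNA libraries, and the log2 fold change was -0.0028, with a 95% interval of -0.19 to 0.18 (adjusted p = 0.990 by limma).

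HLA-E, a non-classical heavy chain that is read by NKG2A and NKG2C on NK cells, is encoded on chromosome 6 at 30489509 to 30494194 (plus strand). It had 4.87, 4.22 and 4.40 TPM with CsiRNA and 4.68, 4.48 and 4.16 TPM with NEAT1siRNA. The groups overlapped (log2 fold change -0.01, 95% interval -0.21 to 0.18, adjusted p = 0.948 by limma). HLA-F, another non-classical heavy chain, had 5, 6 and 2 recovered reads with CsiRNA and 1, 2 and 2 reads with NEAT1siRNA. These groups overlapped too, and at this depth no difference in HLA-F could be measured. HLA-B, HLA-C and HLA-E shared 2.6%, 6.8% and 6.2% of their 50-base transcript windows with other genes, mostly with other heavy chains, so that reads from those parts are uncertain.

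B2M, the light chain needed by every class I heavy chain, lies on chromosome 15 from 44711358 to 44718851. It had 311, 321 and 286 TPM with CsiRNA and 291, 305 and 284 TPM with NEAT1siRNA. The groups overlapped (log2 fold change -0.06, 95% interval -0.23 to 0.11, adjusted p = 0.691 by limma). It was the most deeply read member, with 10394 to 12821 recovered reads per library, and counting error alone was 0.924% of its value.

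Within a library, B2M stood at 4.90, 5.17 and 4.63 times the summed RPKM of the 4 heavy chains with CsiRNA and at 4.54, 4.89 and 4.78 times with NEAT1siRNA. From the deposited TPM, whose lengths inflate this ratio, the values were 18.1 ± 0.990 and 17.6 ± 0.641 (SD, n = 3 each, exact two-sided permutation p = 0.4). The ratio of HLA-B to HLA-C in TPM was 0.493 ± 0.0164 with CsiRNA and 0.485 ± 0.0178 with NEAT1siRNA (SD, n = 3 each, exact two-sided permutation p = 0.7). The smallest p that 3 against 3 libraries allow is 0.1.

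TAP1 and TAP2, the subunits of the transporter, are neighbours on the minus strand of chromosome 6. TAP1, from 32845209 to 32853816, had 2.04, 1.85 and 1.83 TPM with CsiRNA and 1.81, 1.85 and 1.71 TPM with NEAT1siRNA. The groups overlapped (log2 fold change -0.06, 95% interval -0.25 to 0.14, adjusted p = 0.743 by limma). TAP2, from 32821833 to 32838739, had 2.52, 2.18 and 2.37 TPM with CsiRNA and 1.99, 1.96 and 1.80 TPM with NEAT1siRNA. The 3 NEAT1siRNA libraries all lay below the CsiRNA range, but TAP2 did not pass the test (log2 fold change -0.20, 95% interval -0.40 to -0.0031, adjusted p = 0.174 by limma).

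TAP2 was called lower in 2 settings that use the recovered reads. In RPKM it had 24.7, 22.8 and 25.6 with CsiRNA and 21.6, 19.7 and 20.5 with NEAT1siRNA, and the fit on log2(RPKM + 1) gave -0.23 (adjusted p = 0.0274 by limma), where 10.3% of all genes were called lower. With voom it was -0.24 (adjusted p = 0.0160 by limma), where 11.6% of all genes were called lower. The GC content of the TAP2 transcript was 48.9%, against 57.4% for TAP1. With a trend on GC content and length removed from each library, the TAP2 log2 fold change was -0.11 (adjusted p = 0.168 by limma). Of the 50-base windows of the TAP2 transcript, 35.3% also lay in an overlapping readthrough gene, so its count is uncertain.

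The ratio of TAP1 to TAP2 was 0.809, 0.849 and 0.774 in the CsiRNA libraries and 0.910, 0.943 and 0.949 in the NEAT1siRNA libraries, from TPM. All 3 NEAT1siRNA ratios lay above the CsiRNA range, with a mean 15.2% higher (n = 3 each, exact two-sided permutation p = 0.1, the smallest possible). Since this ratio is taken within a library, it does not depend on how the library was scaled. A trend on GC content and length was not removed from it. With that trend removed from each gene's values, the log2 fold changes were 0.0019 for TAP1 and -0.11 for TAP2.

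TAPBP bridges the transporter and the empty heavy chain, and its gene occupies 33299694 to 33314284 of chromosome 6 (minus strand). It had 22.2, 21.2 and 21.4 TPM with CsiRNA and 23.2, 22.5 and 21.0 TPM with NEAT1siRNA. Replicates 1 and 2 with NEAT1siRNA lay above the CsiRNA range and replicate 3 below it (log2 fold change 0.04, 95% interval -0.15 to 0.22, adjusted p = 0.829 by limma). With the GC and length trend removed it was called higher, at 0.11 (adjusted p = 0.0487 by limma), where 16.4% of all genes were called higher.

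NLRC5, the class I transactivator, is encoded at 56989485 to 57083531 of chromosome 16 (plus strand). It had 1.17, 0.958 and 1.13 TPM with CsiRNA and 1.10, 0.990 and 0.907 TPM with NEAT1siRNA. The groups overlapped (log2 fold change -0.06, 95% interval -0.26 to 0.14, adjusted p = 0.746 by limma). With 129 to 196 recovered reads per library, its counting error was 7.93%, the highest of the members tested.

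The intervals bound what could have been missed between these libraries, whose spread may be technical. In the fit on rebuilt RPKM, the 95% intervals of the 7 members tested other than TAP2 ran from a ratio of at least 0.857 to one of at most 1.17, NEAT1siRNA against CsiRNA, of RPKM + 1. In the fit on log2(TPM + 1) they ran from at least -0.26 to at most 0.22 on the log2 scale. For NLRC5, which lies near 1 RPKM, the interval by voom was wider, at -0.32 to 0.18 on the log2 scale. The interval of TAP2 ran from 0.772 to 0.940. A lack of a call does not show that smaller changes are absent.

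**Figure D3:**
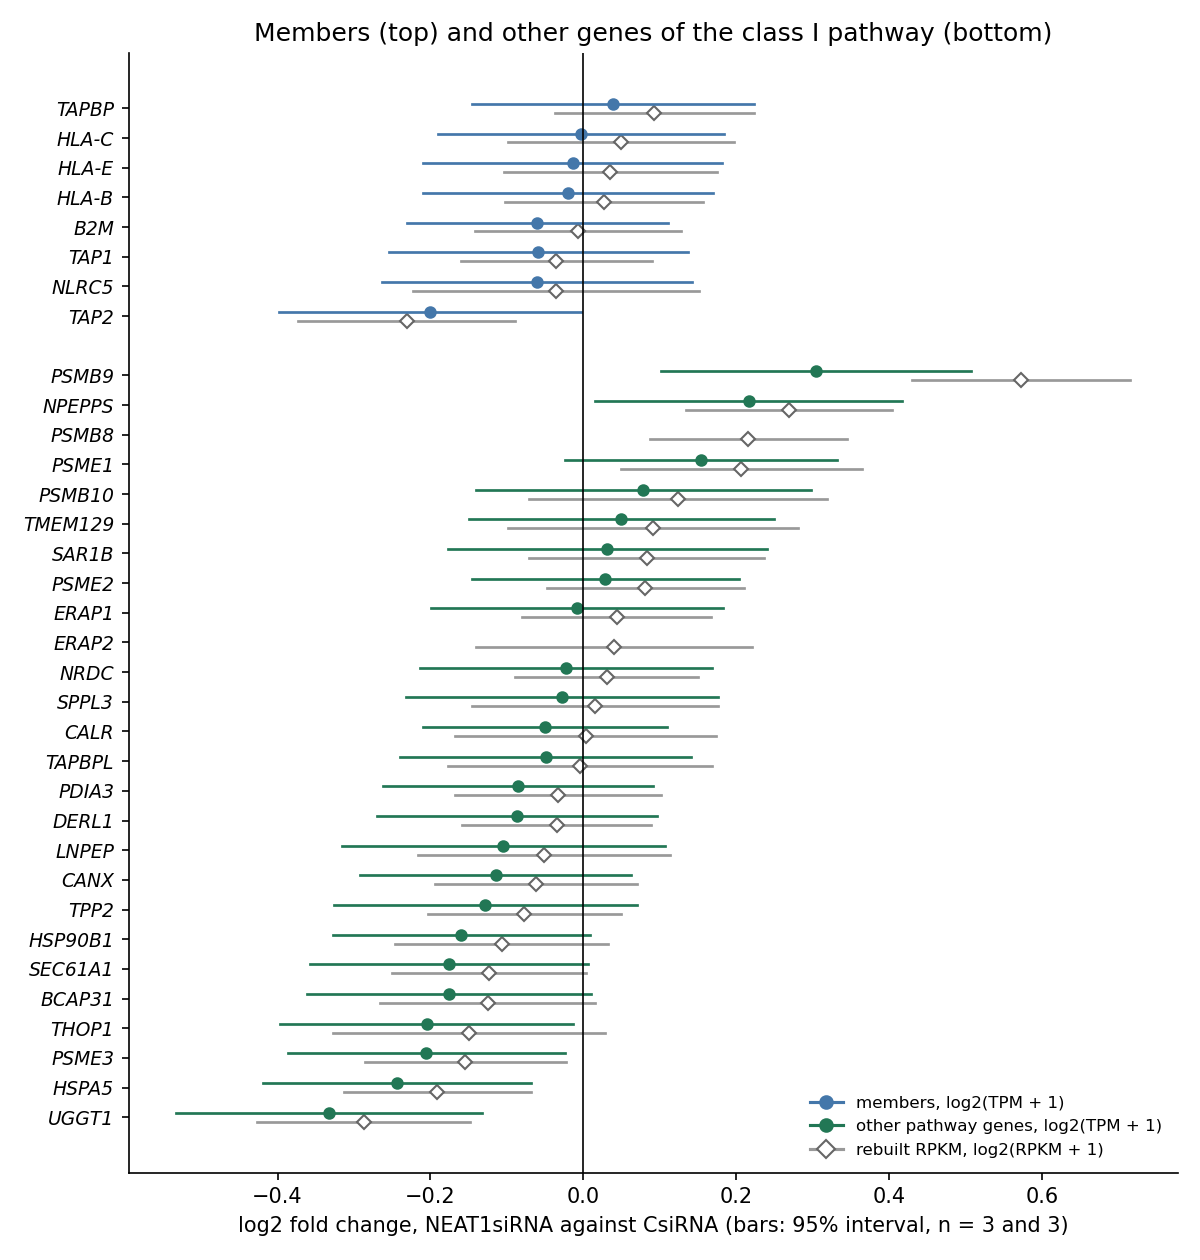
Log2 fold change of NEAT1siRNA against CsiRNA (x axis) with its 95% interval for the members (top) and other genes of the class I pathway (bottom), on log2(TPM + 1) (circles) and on rebuilt RPKM (open diamonds). The members other than TAP2 straddle 0 on both scales, and PSMB9 and UGGT1 lie farthest from 0 among the other genes.

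The other genes of the pathway were read from a list of 28, of which 25 were tested. In this list 1 gene rose, PSMB9 (4.99% of all genes were called higher), and 1 fell, UGGT1 (8.98% were called lower). The list median was -0.05 on the log2 scale, beside -0.04 over all genes tested. In 11 of the 25 genes the groups did not overlap, against 30.3% of all genes tested.

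PSMB9 codes for a catalytic subunit of the immunoproteasome, the form of the proteasome that favours peptides fit for class I. It had 1.03, 0.951 and 0.860 TPM with CsiRNA and 1.38, 1.57 and 1.26 TPM with NEAT1siRNA. All 3 NEAT1siRNA libraries lay above the CsiRNA range (log2 fold change 0.30, SE 0.10, adjusted p = 0.0396 by limma). The adjusted p was 0.0550 to 0.129 when any 1 library was left out, so the call needed all 6. In rebuilt RPKM, which the long length in TPM does not shrink, PSMB9 had 9.40 ± 0.396 with CsiRNA and 14.5 ± 0.718 with NEAT1siRNA (SD, n = 3 each, log2 fold change 0.57, adjusted p = 0.000166 by limma).

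PSMB8, another immunoproteasome subunit that lies between TAP2 and TAP1, was named after its values were seen. It missed the TPM filter, with a mean of 0.900 TPM with CsiRNA and 1.02 TPM with NEAT1siRNA. In rebuilt RPKM it had 13.9, 14.2 and 13.6 with CsiRNA and 16.7, 16.4 and 15.8 with NEAT1siRNA (log2 fold change 0.22, adjusted p = 0.0238 by limma), where 10.6% of all genes were called higher. On log2(TPM + 1) with no filter its log2 fold change was 0.087 (adjusted p = 0.469 by limma). The third such subunit, PSMB10, on another chromosome, had a log2 fold change of 0.12 in rebuilt RPKM (adjusted p = 0.350 by limma) and of 0.08 on the TPM scale (adjusted p = 0.687 by limma).

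PSMB9 and TAP1 are read away from each other, and their RefSeq starts lie 488 bases apart. The ratio of PSMB9 to TAP1 in RPKM was 0.446, 0.456 and 0.416 with CsiRNA and 0.677, 0.754 and 0.653 with NEAT1siRNA. This pair was chosen after its values were seen and was given no test. In GENCODE the PSMB9 gene, from 32844136 to 32859851 on the plus strand, spans TAP1 on the opposite strand. It also overlaps PSMB8, from 32840717 to 32844679 on the minus strand. The library kit keeps the strand, but the counting setting is not given in the sources used here, so reads of these genes could be mixed.

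**Figure D4:**
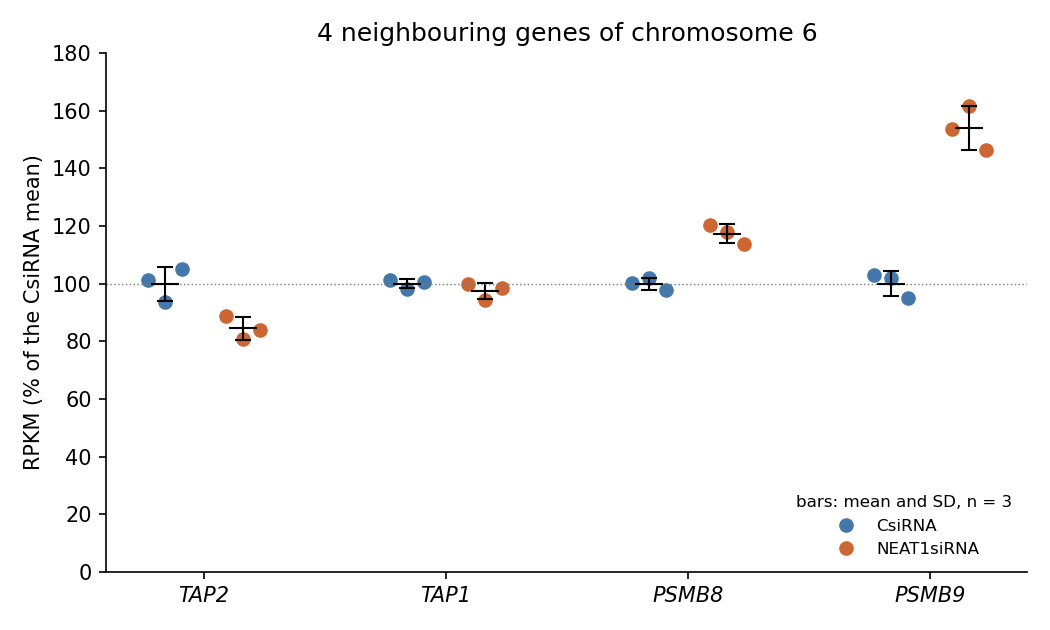
RPKM of TAP2, TAP1, PSMB8 and PSMB9 in each library as a percentage of the CsiRNA mean (y axis), with the mean and SD of 3 libraries per group. The NEAT1siRNA libraries lie below the CsiRNA range for TAP2, overlap it for TAP1 and lie above it for PSMB8 and PSMB9.

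UGGT1, the folding sensor that returns poorly loaded class I molecules for another round, had 17.2, 15.3 and 14.5 TPM with CsiRNA and 12.8, 12.8 and 11.0 TPM with NEAT1siRNA. All 3 NEAT1siRNA libraries lay below the CsiRNA range (log2 fold change -0.33, SE 0.10, adjusted p = 0.0227 by limma). The call was lost without CsiRNA replicate 1 (adjusted p = 0.141 by limma) and without NEAT1siRNA replicate 3 (adjusted p = 0.147 by limma).

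The 4 not called with the highest TPM were folding helpers. Calreticulin (CALR) had a log2 fold change of -0.05 (adjusted p = 0.730 by limma) and calnexin (CANX) one of -0.11 (adjusted p = 0.421 by limma), on the TPM scale. The chaperone HSP90B1 was at -0.16 (adjusted p = 0.208 by limma) and HSPA5 (BiP) at -0.24 (adjusted p = 0.0564 by limma). HSPA5 was called lower in 10 of its 17 alternative settings.

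Transcription factors that act on class I promoters were read from a list of 23, of which 22 were tested. In it 1 rose, RFXAP (4.99% of all genes were called higher), and 1 fell, NFKB1 (8.98% were called lower). The list median was 0.02, beside -0.04 over all genes tested. RFXAP is a subunit of the RFX complex, on which NLRC5 assembles. It had 2.94, 2.62 and 2.56 TPM with CsiRNA and 3.79, 4.81 and 3.88 TPM with NEAT1siRNA, all above the CsiRNA range (log2 fold change 0.47, SE 0.10, adjusted p = 0.00222 by limma). The other RFX subunits, RFX5 and RFXANK, had log2 fold changes of -0.06 (adjusted p = 0.724 by limma) and -0.0020 (adjusted p = 0.993 by limma).

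NFKB1, which codes for the p105 precursor of an NF-κB subunit, had 12.6, 10.9 and 9.94 TPM with CsiRNA and 8.62, 8.04 and 7.63 TPM with NEAT1siRNA. The groups did not overlap (log2 fold change -0.41, SE 0.10, adjusted p = 0.00564 by limma), and without CsiRNA replicate 1 the adjusted p was 0.0557 by limma. RELA, its usual partner, was at -0.12 (adjusted p = 0.438 by limma).

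STAT3, a signal carrier of the IL-6 family of cytokines, had a log2 fold change of 0.02 on the TPM scale (adjusted p = 0.921 by limma). SUZ12, a subunit of the repressive PRC2 complex, was at 0.02 (adjusted p = 0.921 by limma).

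Interferon ligands were close to 0. Of 14 ligands and receptors listed, 6 were listed at 0 TPM in every library, among them IFNG, and IFNB1 had 0, 1 and 0 recovered reads with CsiRNA and 2, 0 and 0 with NEAT1siRNA. The 4 genes tested were receptor chains, and none was called by limma. An unadjusted p under 0.05 was reached by 1, IFNGR2, and by 27.4% of all genes tested. The log2 fold change of IFNGR2 was 0.20 (adjusted p = 0.165 by limma). On rebuilt RPKM it was 0.26 (adjusted p = 0.00898 by limma), where 10.6% of all genes were called higher. IFNGR1, IFNAR1 and IFNAR2 were at 0.05, -0.17 and 0.04 on the TPM scale.

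The 5 genes whose profiles over the 6 libraries lay closest to the members' median profile were TOP1MT, HNRNPL, RAB34, EEF2K and PQLC1, with Euclidean distances of 0.0252 to 0.0332 on the log2(TPM + 1) scale. They were chosen for this likeness, over 6 libraries. Their log2 fold changes ran from -0.05 to -0.02.

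Across the series, recovered reads summed to 17246575 to 20343890 per library with CsiRNA and 15787040 to 20178843 with NEAT1siRNA, and the members held 0.159% to 0.172% of them. In each library 4 short noncoding RNAs (RN7SK, RN7SL1, RN7SL2 and RPPH1) held 64.4% to 68.1% of the summed TPM. Why they were read at this level in mRNA libraries was not tested. Of the calls over all genes, 35.7% were higher on the TPM scale and 49.4% to 54.8% after quantile normalization or centring. The mesenchymal markers VIM, FN1, CDH2 and SPARC were all present. FN1 (-0.47, adjusted p = 0.00116 by limma) and CDH2 (-0.34, adjusted p = 0.0186 by limma) fell, which makes 2 of 4 where 8.98% of all genes were called lower. VIM was at -0.15 (adjusted p = 0.243 by limma) and SPARC at 0.08 (adjusted p = 0.554 by limma). The CDH2 call was lost without CsiRNA replicate 1 (adjusted p = 0.140 by limma), CsiRNA replicate 2 (0.0539) or NEAT1siRNA replicate 3 (0.122). ESR1 was listed at 0 TPM in every library, PGR had 0 to 2 reads, and ERBB2 had 652 to 877 reads. Of 7 leukocyte markers CD68 alone passed the filter, PTPRC had 1 to 14 reads per library, and CD3E was listed at 0 TPM.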

How the data were processed

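RNA-seq of 6 libraries was analysed, 3 per group, with groups taken from the labels. The authors prepared TruSeq Stranded mRNA libraries, aligned reads with STAR to GRCh38 and compared groups with DESeq2. They deposited TPM per library (reads per gene scaled by length and depth) and a table whose mean normalized count, a signal averaged over all libraries, was used here. Its fold changes and p-values were not used.

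Reads per gene were recovered from the TPM and the mean normalized count. For genes under a mean count of 5, 99.8% of the nonzero values per library were whole reads (within 0.05). The share was 69.8% at a mean of 50 to 500, where NLRC5 lies. It was 12.6% above 500, where the other members tested lie, so that their reads are estimates. Some values lie that close to a whole number by accident, so the last share is a weak check. Genes with a mean of at least 1 TPM were tested on log2(TPM + 1) with limma 3.58.1 (R 4.3.3, eBayes with a trend, Benjamini-Hochberg adjustment, threshold 0.05). Tested on simulated data, this let through false calls at a share somewhat above the threshold. The simulation gave every gene the same dispersion and no library a shift of its own, so the share in these data may differ. Ratios were tested by exact permutation (scipy 1.17.1). RPKM used canonical GENCODE 44 transcripts and were added after the lengths were seen. The text names all members, each called gene of the lists and the 5 nearest profiles. Up to 4 others per list were to be those with the highest TPM, but more were named in some lists. RFX5 and RFXANK were named beside RFXAP, and PSMB10 beside PSMB8. Some listed genes are counted but not reported here by name. Members and lists were chosen with earlier results of these data known. Depth was 15787040 to 20343890 recovered reads per library. Alternatives changed the pseudocount, filter, scaling, trend, block, GC correction, the use of reads and the libraries.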

Additional observations from a re-analysis of the deposited data

How the results depend on the processing

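NEAT1 was called lower under every alternative, with log2 fold changes of -1.60 to -1.24 when 1 library was left out. The number of members called was 0, except for 1 with the GC and length trend removed (TAPBP), with voom (TAP2) and on rebuilt RPKM (TAP2), and 0 to 0 without 1 library. The number of other pathway genes called higher, 1, became 0 with no filter or a mean of at least 5 TPM, 2 with quantile normalization, centring or voom, 3 with the GC and length trend removed (with or without the replicate block) or on rebuilt RPKM, and 0 to 0 without 1 library. The number called lower, 1, became 0 with no filter, 2 with a mean of at least 5 TPM, quantile normalization, centring, the replicate block, voom or rebuilt RPKM, 4 with the GC and length trend removed, 3 with that and the block, and 0 to 2 without 1 library. Over all genes, 4.99% were called higher and 8.98% lower. These shares were 1.31% and 1.42% with no filter, 4.93% and 9.33% with a mean of at least 5 TPM, 10.1% and 10.3% with quantile normalization, 10.8% and 8.9% centred, 5.4% and 9.9% with the replicate block, 16.4% and 16.9% with the GC and length trend removed, 16.2% and 16.4% with that and the block, 11.4% and 11.6% by voom and 10.6% and 10.3% on rebuilt RPKM. Causes were not tested.

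The members' median of -0.04 became 0.0052 with quantile normalization, 0.018 centred, 0.0073 with the GC and length trend removed (0.0073 with the block), 0.011 by voom and 0.010 on rebuilt RPKM. It ran from -0.05 to -0.02 without 1 library. The sign of the uncalled heavy chains was not stable. In the same order of alternatives, HLA-B was at 0.042, 0.037, 0.0037 (0.0037), 0.028 and 0.027, HLA-C at 0.052, 0.054, 0.015 (0.015), 0.050 and 0.049, and HLA-E at 0.042, 0.043, 0.054 (0.054), 0.037 and 0.035. HLA-C ran from -0.029 to 0.022 and HLA-E from -0.051 to 0.034 without 1 library. With the GC and length trend removed TAP1 was at 0.0019 (0.0019 with the block) and NLRC5 at 0.011 (0.011).

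Without 1 library the difference in TAP1 per TAP2 ran from 0.105 to 0.142, B2M per heavy chain from -1.08 to -0.0917, and HLA-B per HLA-C from -0.0138 to 0.00295, crossing 0 without CsiRNA replicate 1 (0.0019) and NEAT1siRNA replicate 1 (0.0030). PSMB9 was also lost with no filter (adjusted p = 0.0845 by limma), as were UGGT1, RFXAP, NFKB1, FN1 and CDH2.

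The labels do not say whether equal replicate numbers pair the libraries. Same-numbered deviations correlated at -0.03, 0.251 and -0.107 across 10721 genes, and not every library correlated best with its own number. With 3 libraries per group, these correlations cannot settle whether the libraries were paired. With the replicate block, the number of genes called was 1640 instead of 1498. It was 784 without CsiRNA replicate 1, 832 without NEAT1siRNA replicate 3, 2076 without NEAT1siRNA replicate 2, 505 with no filter, 2468 by voom and 3466 with the GC and length trend removed, and lay between 1032 and 2238 in the other unblocked settings. With the block TAP2 had an adjusted p of 0.153 by limma, and the paired permutation p for TAP1 per TAP2 was 0.25, the smallest possible. Members with 1 to 6 reads (HLA-F) are limited by depth.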

Other observations

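Class I-like heavy chains, which resemble the classical ones but mostly serve as ligands for NK cells or other receptors, were read from a list of 12, of which 6 were tested. None was called by limma, while 1, HFE, had an unadjusted p under 0.05, as did 27.4% of all genes tested. HFE, which controls iron uptake, had 3.04, 2.46 and 2.68 TPM with CsiRNA and 3.25, 3.35 and 3.26 TPM with NEAT1siRNA (log2 fold change 0.20, adjusted p = 0.166 by limma). The stress ligands MICA and MICB lay lower in all 3 NEAT1siRNA libraries, with log2 fold changes of -0.16 (adjusted p = 0.305 by limma) and -0.13 (adjusted p = 0.417 by limma). In 3 of the 6 genes the groups did not overlap in TPM, against 30.3% of all genes tested. PROCR, the endothelial protein C receptor, was at -0.07 (adjusted p = 0.747 by limma). MICA also carried a long length in the deposited TPM, at 8.93 times its transcript.

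Of 12 genes of class II presentation, the route for peptides from outside the cell, none passed the filter and 4 were listed at 0 TPM in every library. HLA-DRA had 2 to 9 recovered reads and CD74, the invariant chain, 10 to 27. The most deeply read was HLA-DOB, at 52, 46 and 63 reads with CsiRNA and 52, 38 and 29 reads with NEAT1siRNA. It lies beside TAP2.

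Of 4 epithelial markers, KRT18 alone was tested, with a log2 fold change of 0.29 (adjusted p = 0.0799 by limma). EPCAM had 1 read in 1 library and 0 in the others.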
